A study of Mus musculus with 50 samples.

Results

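The subject of this report is a set of 10 genes that encode antioxidant enzymes: the glutathione peroxidases Gpx1, Gpx3 and Gpx4, the thioredoxin reductase Txnrd1, the peroxiredoxins Prdx1, Prdx3 and Prdx5, the superoxide dismutases Sod1 and Sod2, and catalase (Cat). They were taken by symbol, through their Ensembl IDs, from the 52636 genes of the count table, and all 10 passed the filter on low counts in every comparison. Thyroids of male C57BL/6 mice were sequenced in 50 libraries, 10 groups of 5, after a single intraperitoneal dose of antibody. The mice were 10 to 14 weeks old (the series text says 10 to 12). Controls received an isotype-matched antibody against ragweed (RW, 40 mg/kg). Blocking antibodies were directed at the Notch ligands Jag1 and Jag2 (aJ1aJ2, 20 mg/kg each), the receptors Notch1 and Notch2 (aN1aN2, 5 and 10 mg/kg), or Notch1, Notch2 and Notch3 (aN1aN2aN3, 5, 10 and 20 mg/kg). RW, aJ1aJ2 and aN1aN2 groups were collected at 15 hours and at 5 days. The 7-day libraries carry 2 series of sample IDs. The first set consists of RW and aJ1aJ2, the second of aJ1aJ2 and aN1aN2aN3. No RW group of the second set was analysed here. The series text also describes daily injections of thyroid hormones, and no label says which mice received them. The labels do not say that each library came from a separate animal, so p-values measure the spread between these libraries.

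Thyroid follicle cells make hydrogen peroxide on purpose. The dual oxidases release it at the apical membrane, where thyroid peroxidase uses it to attach iodine to thyroglobulin, and the cell has to remove what leaks back. Superoxide dismutases turn superoxide into hydrogen peroxide, and catalase, glutathione peroxidases and peroxiredoxins break it down. Glutathione peroxidases draw their electrons from glutathione, and peroxiredoxins draw theirs from thioredoxin, which thioredoxin reductase recharges. Gpx1, Gpx3, Gpx4 and Txnrd1 belong to the selenoproteins, a class that is rich in the thyroid. Their active sites hold selenocysteine, which is written by a UGA codon that would otherwise stop translation.

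That codon is visible in the transcripts (GENCODE M21) of 4 of the 10 genes. The sequences below are shown to separate the selenium-dependent members from the others. They read 5′ to 3′ along the coding strand, with the selenocysteine codon (TGA in DNA letters) in capitals.
Gpx1: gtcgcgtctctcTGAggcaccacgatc
Gpx3: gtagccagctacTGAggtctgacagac
Gpx4: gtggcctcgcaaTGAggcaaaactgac
Txnrd1: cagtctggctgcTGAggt
It is codon 47 of 201 in Gpx1, codon 73 of 226 in Gpx3, codon 129 of 253 in Gpx4 and codon 612 of 613 in Txnrd1, where a single glycine codon follows it. The coding sequences of Prdx1, Prdx3, Prdx5, Sod1, Sod2 and Cat held no in-frame TGA before their stop.

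The promoters of Prdx1, Sod1 and Txnrd1 share a 9-base match to the core of the antioxidant response element. That element, bound by Nfe2l2 (Nrf2), drives many genes of this kind. The search was for TGACNNNGC on both strands of windows from 250 bases before to 50 bases after each start site (RefSeq, GRCm38.p6). All 3 matches lay on the minus strand of plus-strand genes, so they appear below as the reverse complement, in capitals.
Prdx1: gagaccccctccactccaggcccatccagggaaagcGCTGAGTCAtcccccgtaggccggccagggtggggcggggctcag
Sod1: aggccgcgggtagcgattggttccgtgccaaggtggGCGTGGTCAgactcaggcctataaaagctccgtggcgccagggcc
Txnrd1: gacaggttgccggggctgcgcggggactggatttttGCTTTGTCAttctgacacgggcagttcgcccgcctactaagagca
These 81-base stretches lie at chr4:116685430-116685510, chr16:90220670-90220750 and chr10:82859078-82859158, and the matches start 133, 56 and 92 bases before the start site. Txnrd1 has more than 1 start site in the table, and the match belongs to its second window. None of the windows of the other 7 genes held these letters. Across the table, 12.4% of 32851 windows and 14.0% of 27025 genes held at least 1 match, so a match in such a window is common and describes sequence only.

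Total counts ranged from 15.3 M to 52.8 M counts per library (M for 1e6, median 28.3 M), and the 10 genes together took 0.0991% to 0.541% of them. Thyroglobulin (Tg), which marks follicle cells, took a median of 28.5% of counts, and all 8 follicle markers were detected. The 9 skeletal muscle markers were also detected, with a summed share from 0.0339% to 11.0%. In bulk tissue, fewer cells of a type and less RNA per cell cannot be told apart. RW library 3 at 5 days stood apart, with Tg at 0.450% and muscle markers at 11.0% of counts. In aJ1aJ2 library 2 of the first 7-day set Tg was 8.87% and muscle 7.24%, and in aJ1aJ2 library 3 at 15 hours they were 14.5% and 5.12%. All 10 libraries of the second 7-day set had Tg between 1.15% and 6.50%. Against median-of-ratios size factors, the scale of the deposited FPKM values placed 30 libraries in one block (0.918 to 0.948) and 20 in another (1.09 to 1.12). RW and aJ1aJ2 at 15 hours fall in the first and aN1aN2 at 15 hours in the second, so that the effects of aN1aN2 and of the block cannot be told apart at this time. Fits with the Tg share or the muscle share as a covariate are given where they change a call.

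Levels of different genes can be set side by side only per length, and the deposited FPKM values do not do this by transcript. The length implied by the counts and FPKM was 0.877 to 0.981 times the whole gene span for 8 of the 10 genes, introns included, and about 0.312 times for Gpx4 and 0.303 times for Sod2. It was 1.18 times the transcript length for Gpx1 but 17.3 times for Txnrd1. FPKM levels are therefore not compared between genes here. Per kilobase of 1 coding transcript per gene (GENCODE M21), Prdx5 had the highest mean in all 3 RW groups, at 284 ± 37.7 CPM per kilobase (SD, n = 5) at 15 hours. Sod1 (213 ± 31.1), Gpx3 (176 ± 58.7) and Gpx1 (152 ± 22.9) followed in RW at 15 hours, with each neighbour overlapping the next in mean ± SD. Prdx3 stood at 102 ± 15.5, Prdx1 at 71.7 ± 9.86 and Cat at 57.9 ± 6.75 CPM per kilobase. Txnrd1 (36.02 ± 3.39), Gpx4 (32.8 ± 3.66) and Sod2 (21.1 ± 9.14) were the lowest 3 in all 3 RW groups, again without a gap between neighbours. The order also depends on the transcript chosen, which has 5861 bases for Sod2 and 755 for Prdx5. Whether the counts include intronic reads is not stated, and Gpx4 shares reads with a copy, so this order is a description of these counts. All further levels are CPM, the usual scaling of counts to library size, here with TMM factors, which compare libraries and not genes.

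**Figure D1:**
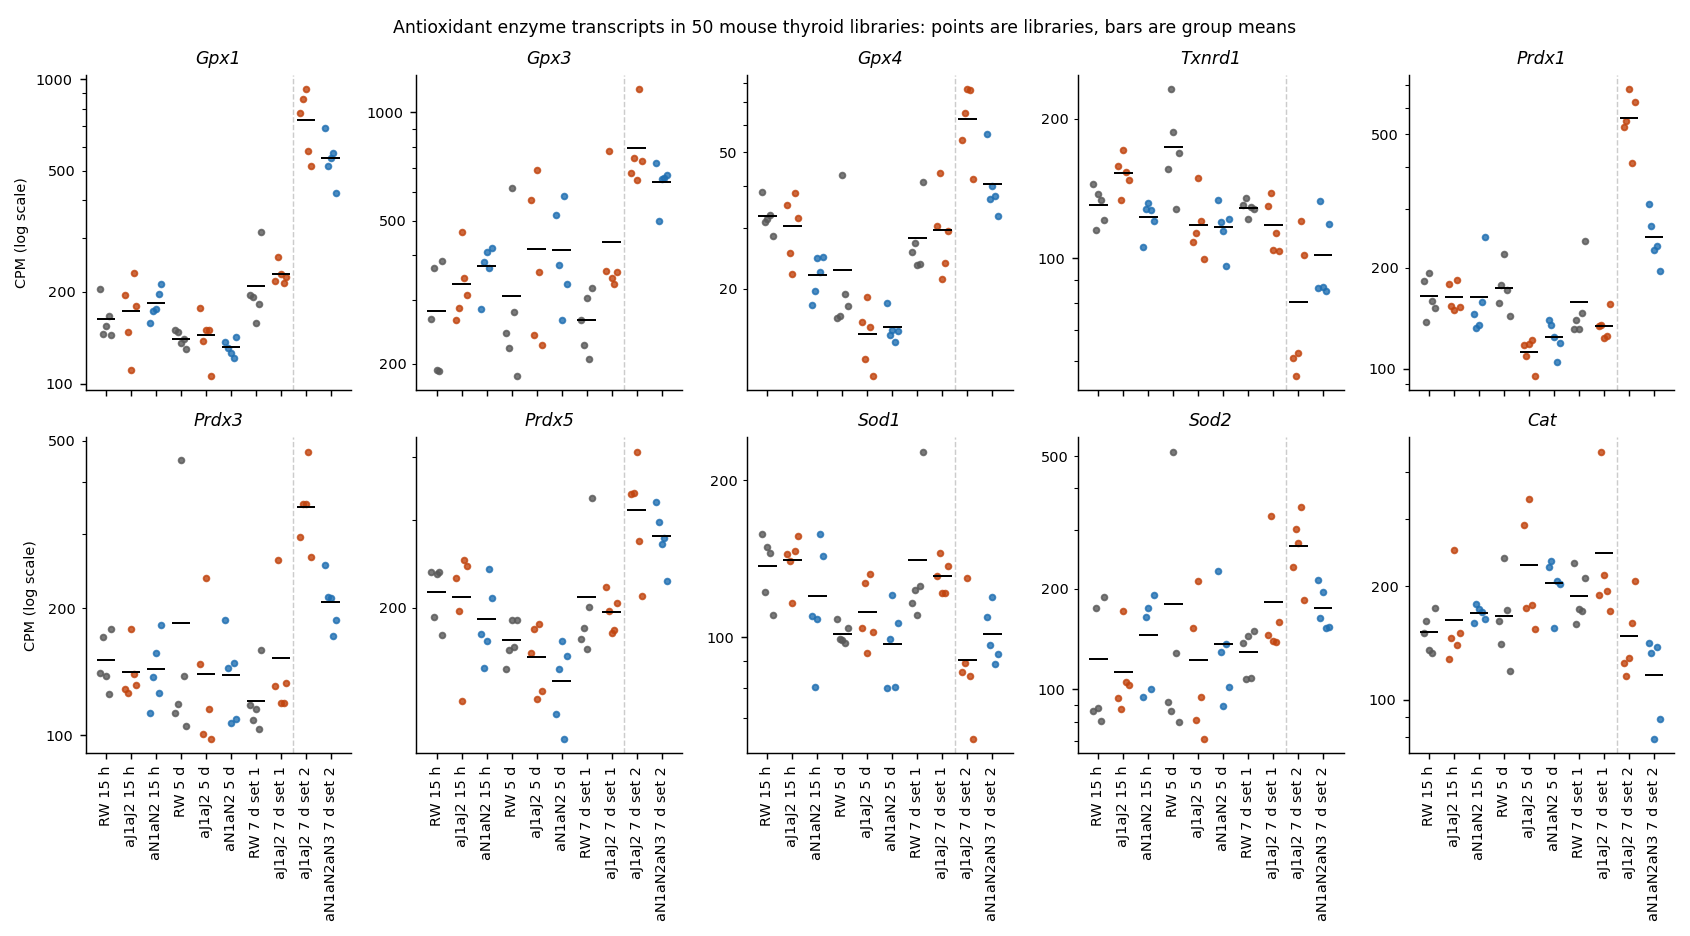
Expression of the 10 genes (CPM, log axis, 1 panel per gene) in 10 groups of 5 libraries; grey points are RW, orange aJ1aJ2 and blue aN1aN2 or aN1aN2aN3 libraries, black bars are group means, and the dashed line precedes the second 7-day set. Gpx1 lies between 106 and 314 CPM in the first 8 groups and between 423 and 930 CPM in the second 7-day set.

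No antibody changed any of the 10 transcripts against RW past the threshold (edgeR quasi-likelihood test, Benjamini-Hochberg adjusted p of 0.05 over all genes tested). Over 5 comparisons this makes 0 of 50 values, with log2 fold changes from -0.64 to 0.72 and a smallest adjusted p of 0.0677. Of all genes tested, 0.573% passed for aJ1aJ2 and 1.68% for aN1aN2 at 15 hours, 0.179% for aJ1aJ2 and 0% for aN1aN2 at 5 days, and 0% for aJ1aJ2 at 7 days. At an unadjusted p under 0.05, 9 of the 50 values passed: 1 of 10 with aJ1aJ2 at 15 hours (6.59% of all genes), 1 with aN1aN2 at 15 hours (14.4%), 3 with aJ1aJ2 at 5 days (11.8%), 3 with aN1aN2 at 5 days (10.0%) and 1 with aJ1aJ2 at 7 days (11.6%). DESeq2 called 5 of the 50 and a limma fit with library quality weights 6, all of them lower than RW. The shares of all genes called by these fits are not given, so these counts have no background to be read against. Within the second 7-day set, where aJ1aJ2 is the only reference, 4 of 10 were lower with aN1aN2aN3 and 0 higher. Of all genes, 19.6% were called there (10.4% lower, 9.19% higher). Without an RW group in this set, which of its 2 groups moved cannot be told. The 4 were Prdx1, Prdx3, Gpx4 and Sod2.

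**Figure D2:**
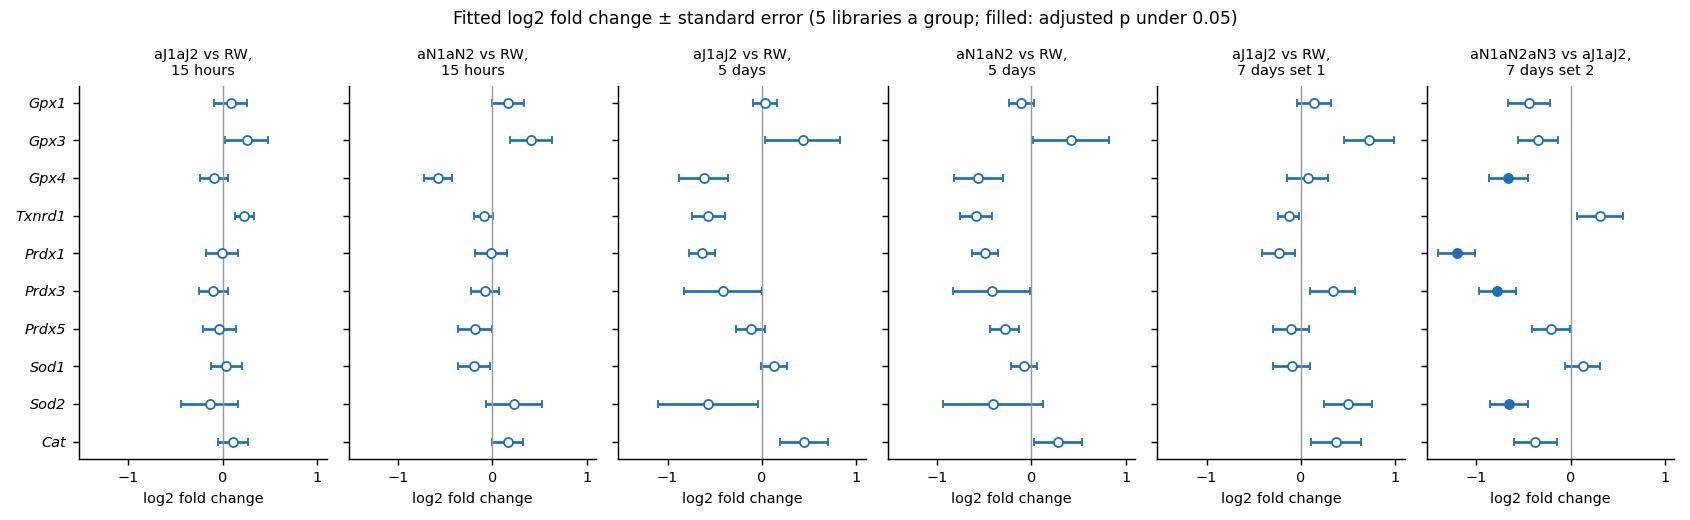
Log2 fold change with its standard error (horizontal axis) for the 10 genes (rows) in 6 comparisons of 5 against 5 libraries; filled points have an edgeR adjusted p under 0.05. Filled points occur only in the second 7-day set, for Prdx1 (-1.21), Prdx3 (-0.78), Gpx4 (-0.66) and Sod2 (-0.65).

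Gpx1 encodes the cytosolic glutathione peroxidase (ENSMUSG00000063856, chromosome 9). It moved little against RW, by -0.11 to 0.17 on the log2 scale in the 5 comparisons, with adjusted p-values from 0.714 to 1.00. Its group means ran from 131 ± 8.28 CPM (SD, n = 5) with aN1aN2 at 5 days to 229 ± 18.8 CPM with aJ1aJ2 in the first 7-day set. The second 7-day set was far above these, at 733 ± 177 CPM with aJ1aJ2 and 552 ± 96.7 CPM with aN1aN2aN3. The same antibody pair at the same time therefore gave 214 to 261 CPM in the first set and 520 to 930 CPM in the second. Between sets no test was made, since they differ in more than treatment. Within the second set the log2 difference was -0.44 (SE 0.22, adjusted p = 0.168).

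Gpx3 encodes the secreted glutathione peroxidase, which thyroid follicles are known to release (ENSMUSG00000018339, chromosome 11). In the first 7-day set RW libraries stood at 264, 226, 305, 207 and 325 CPM and aJ1aJ2 libraries at 362, 783, 345, 332 and 360 CPM. The 2 groups did not overlap, which held for 1.68% of all genes in this direction. Library 2 of the aJ1aJ2 group, the one with low Tg and high muscle, lay far above the other 4. The log2 difference was 0.72 (SE 0.26, adjusted p = 0.343), and 0.39 (adjusted p = 0.287) without that library. At 5 days RW library 3 reached 614 CPM against 185 to 279 CPM in the other RW libraries. There the log2 differences were 0.43 with aJ1aJ2 and 0.42 with aN1aN2 (adjusted p = 0.689 and 0.852), and 0.85 and 0.83 without it (adjusted p = 0.249 and 0.266). None of these Gpx3 differences passed the threshold, and the difference within the second 7-day set was -0.34 (adjusted p = 0.262).

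Gpx4 encodes the phospholipid hydroperoxide glutathione peroxidase, which protects membranes (ENSMUSG00000075706, chromosome 10). Its lowest adjusted p against RW was with aN1aN2 at 15 hours. RW libraries held 38.4, 31.3, 31.9, 32.9 and 28.5 CPM and aN1aN2 libraries 18.0, 19.7, 24.6, 22.4 and 24.7 CPM. All 5 treated libraries were below all 5 controls, as were those of 2.55% of all genes. The log2 difference was -0.58 (SE 0.15, adjusted p = 0.0677). DESeq2 (adjusted p = 0.0225) and quality weights called it, and so did edgeR without aJ1aJ2 library 3, which shares the fit. FPKM values called it too, but RW and aN1aN2 lie in different FPKM blocks, so the FPKM scale shifts all genes between these groups.

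The Gpx4 counts come with a read-assignment limit. Of the 946 windows of 50 bases (the read length) in the Gpx4 transcript, 584 (61.7%) occur identically in Gpx4-ps2, a processed copy that is counted as a gene of its own. The ratio of Gpx4 to Gpx4-ps2 counts was 0.351 ± 0.0146 (SD, n = 5) in RW and 0.350 ± 0.0411 in aJ1aJ2 at 15 hours, but 0.268 ± 0.0234 in aN1aN2 at 15 hours. It was 0.229 to 0.256 on average in the 3 groups at 5 days and 0.327 and 0.334 in the first 7-day set. The ratio was thus lower in every group of the second FPKM block than in the groups of the first block outside the second 7-day set, where it was 0.204 and 0.213. With both genes added, the 15-hour difference of aN1aN2 was -0.27 (SE 0.13, adjusted p = 0.374), against -0.58 for Gpx4 alone.

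**Figure D3:**
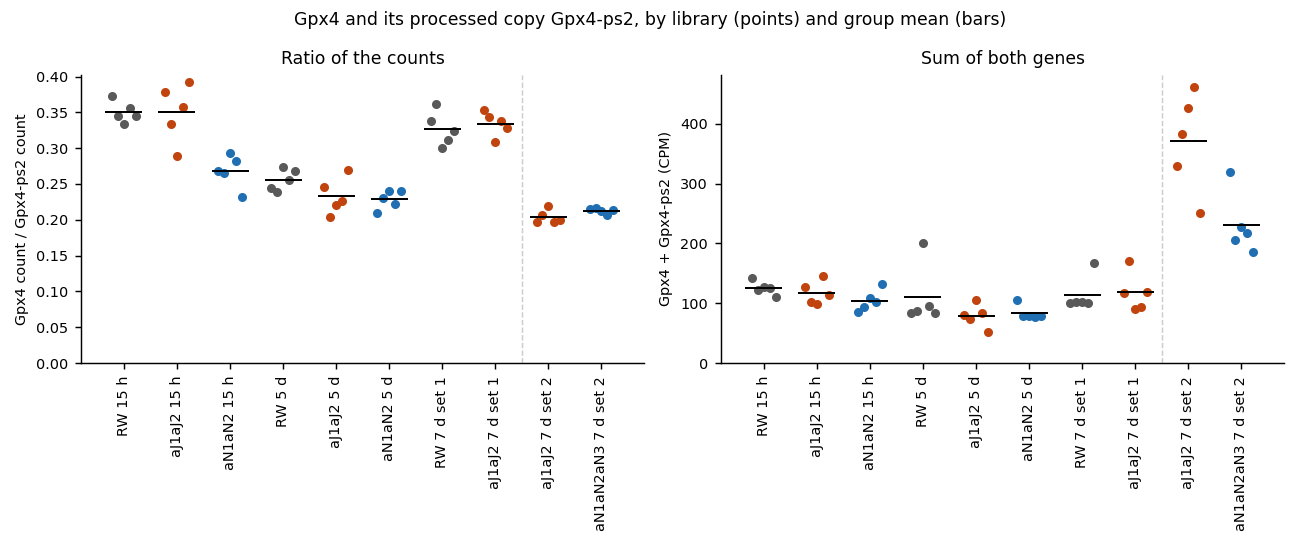
Left, ratio of Gpx4 to Gpx4-ps2 counts, and right, the sum of both genes in CPM, for 10 groups of 5 libraries (points) with group means (black bars); colours as in the plot of expression by group. The ratio is 0.289 to 0.393 in RW and aJ1aJ2 at 15 hours and 0.232 to 0.294 in aN1aN2 at 15 hours.

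At 5 days Gpx4 was 16.4, 16.6, 42.9, 19.3 and 17.8 CPM in RW and 15.9, 12.5, 19.0, 15.5 and 11.1 CPM in aJ1aJ2. The aN1aN2 libraries held 18.1, 14.7, 15.2, 14.0 and 15.1 CPM. RW library 3, the one with little Tg, lay far above the other 14 libraries, and the groups overlapped. The log2 differences of -0.62 (aJ1aJ2, adjusted p = 0.367) and -0.56 (aN1aN2, adjusted p = 0.483) became -0.24 (adjusted p = 0.415) and -0.19 (adjusted p = 0.492) without that library. Gpx4 was called lower for aJ1aJ2 with quality weights, the Tg covariate and the muscle covariate, and for aN1aN2 with the muscle covariate. In the second 7-day set the aJ1aJ2 libraries had 54.2, 65.3, 76.6, 75.9 and 41.8 CPM and the aN1aN2aN3 libraries 56.7, 36.5, 39.8, 37.2 and 32.7 CPM. Gpx4 was lower with aN1aN2aN3 than with aJ1aJ2 by 0.66 on the log2 scale (SE 0.21, adjusted p = 0.0415), with overlap between the groups, and by 0.71 (adjusted p = 0.0368) with Gpx4-ps2 added. Of the 10 fits that left out 1 library, the call held in 2, those without aN1aN2aN3 library 1 and without aJ1aJ2 library 5.

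Txnrd1 encodes the cytosolic thioredoxin reductase (ENSMUSG00000020250, chromosome 10). Its difference from RW under aJ1aJ2 was above 0 at 15 hours and below 0 at 5 days, with neither called in the main test. At 15 hours RW libraries held 145, 115, 138, 134 and 121 CPM and aJ1aJ2 libraries 158, 133, 172, 153 and 147 CPM. All 5 aJ1aJ2 values exceeded the RW mean, though the groups overlapped, with a log2 difference of 0.23 (SE 0.10, adjusted p = 0.719). At 5 days RW libraries held 156, 232, 187, 128 and 168.3 CPM, aJ1aJ2 libraries 108, 114, 149, 120 and 99.7 CPM, and aN1aN2 libraries 134, 120, 114, 96.3 and 122 CPM. All 10 treated libraries were below the RW mean of 174 ± 38.8 CPM, again with overlap. The log2 differences were -0.57 (SE 0.17, adjusted p = 0.218) and -0.59 (SE 0.17, adjusted p = 0.242). Txnrd1 was called lower by DESeq2 (adjusted p = 0.0365 for aJ1aJ2 and 0.0368 for aN1aN2) and with quality weights (adjusted p = 0.00294 and 0.0197). For aJ1aJ2 it was also called with the Tg covariate (adjusted p = 0.0367), and for aN1aN2 with all 50 libraries in 1 fit (adjusted p = 0.0403).

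The change of the aJ1aJ2 effect on Txnrd1 between these times was tested directly. It was -0.82 on the log2 scale (SE 0.19, edgeR adjusted p = 0.0389), the only one of 10 genes called, against 0.636% of all genes. That call was lost in 17 of the 30 fits that left out 1 library, with adjusted p-values between 0.0165 and 0.0973 over the 30. The fits that lost it left out RW libraries 1, 2, 4 or 5, aJ1aJ2 libraries 1, 3, 4 or 5, or aN1aN2 libraries 2 or 4 at 15 hours. At 5 days they left out RW library 2, aJ1aJ2 libraries 1, 2, 4 or 5, or aN1aN2 libraries 1 or 4. The RW groups themselves stood at 130 ± 12.3 CPM at 15 hours and 174 ± 38.8 CPM at 5 days, in different FPKM blocks. For aN1aN2 the same change was -0.50 (SE 0.19, adjusted p = 0.187), with 0 of 10 genes called against 1.80% of all genes. From 15 hours to 7 days of aJ1aJ2 it was -0.39 (SE 0.14, adjusted p = 0.289), with 0 of 10 called against 0.350%. At an unadjusted p under 0.05, 2 of 10 genes passed for aJ1aJ2 at 5 days (11.2% of all genes), 2 for aN1aN2 (14.8%) and 1 at 7 days (9.82%).

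Prdx1, the cytosolic peroxiredoxin (ENSMUSG00000028691, chromosome 4), was lower at 5 days of both antibodies, short of the threshold in the main test. RW libraries had 157, 177, 220, 171 and 144 CPM. The aJ1aJ2 libraries had 117, 109, 119, 122 and 95.1 CPM, and the aN1aN2 libraries 140, 134, 124, 104 and 119 CPM. All 10 treated libraries lay below all 5 RW libraries, a separation seen for 2.06% (aJ1aJ2) and 1.14% (aN1aN2) of all genes. Both comparisons share the RW libraries. The log2 differences were -0.64 (SE 0.14, adjusted p = 0.107) and -0.50 (SE 0.14, adjusted p = 0.230). DESeq2 called both, with adjusted p-values of 0.000555 and 0.0194, and so did quality weights and the Tg and muscle covariates. Without RW library 3 the differences were -0.53 (adjusted p = 0.0468, called) and -0.39 (adjusted p = 0.166).

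No such separation was present at 15 hours or in the first 7-day set. At 15 hours the Prdx1 group means were 164 ± 22.6 CPM for RW, 164 ± 16.3 CPM for aJ1aJ2 and 163 ± 47.6 CPM for aN1aN2. At 7 days they were 158 ± 46.6 CPM for RW and 134 ± 12.8 CPM for aJ1aJ2, a log2 difference of -0.24 (adjusted p = 0.583). It was -0.03 without RW library 5, which held 241 CPM against 131 to 146 CPM in the other 4. The change of the Prdx1 effect from 15 hours to 5 days was -0.65 for aJ1aJ2 (adjusted p = 0.183) and -0.49 for aN1aN2 (adjusted p = 0.274), so a difference between times did not pass the threshold in the main test, while quality weights called that of aJ1aJ2.

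Within the second 7-day set Prdx1 gave the largest difference of the 10 genes. The aJ1aJ2 libraries held 523, 546, 682, 411 and 621 CPM and the aN1aN2aN3 libraries 310, 267, 226, 232 and 195 CPM. The groups did not overlap, as for 6.64% of all genes in this direction. Prdx1 was lower with aN1aN2aN3 by 1.21 on the log2 scale (SE 0.20, adjusted p = 0.00273), and it was called in all 10 fits without 1 library (adjusted p from 0.00157 to 0.0115). The other 40 libraries lay between 95.1 and 246 CPM, below every aJ1aJ2 library of this set and overlapping the aN1aN2aN3 libraries. Of its transcript, 10.9% of 50-base windows are shared with processed copies, chiefly Gm21399, and adding their counts left Prdx1 lower by 1.20. This read-assignment limit also holds at the earlier times. The mean ratio of Prdx1 to copy counts was 6.20 in RW and 5.82 in aJ1aJ2 at 15 hours, but 4.04 in aN1aN2. At 5 days it was 3.86 in RW and 4.00 in aJ1aJ2, and lower than both in aN1aN2. Gm21399 itself was called lower with aJ1aJ2 at 5 days (log2 -0.69, edgeR adjusted p = 0.0431). Adding the copies changed no call in any comparison.

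Prdx3 is the mitochondrial peroxiredoxin (ENSMUSG00000024997, chromosome 19). In the second 7-day set it had 295, 353, 354, 471 and 265 CPM with aJ1aJ2 and 253, 213, 211, 172 and 187 CPM with aN1aN2aN3. All aN1aN2aN3 libraries were below all aJ1aJ2 libraries, as for 6.64% of all genes, and Prdx3 was lower by 0.78 on the log2 scale (SE 0.19, adjusted p = 0.0175). This difference was called in 8 of the 10 fits without 1 library and lost without aN1aN2aN3 library 4 (adjusted p = 0.0502) or 5 (adjusted p = 0.0506). Against RW it differed by -0.42 to 0.33 with adjusted p-values of 0.565 or more. These values turned on single libraries. At 5 days RW held 113, 119, 450, 139 and 105 CPM, and without library 3 the differences changed from -0.41 to 0.23 for aJ1aJ2 and from -0.42 to 0.22 for aN1aN2, none of them called.

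Prdx5 is found in mitochondria, peroxisomes and the cytosol (ENSMUSG00000024953, chromosome 19). It showed the smallest movements of the peroxiredoxins, all 8 of them below 0, from -0.28 to -0.04 on the log2 scale, with a smallest adjusted p of 0.494. Without RW library 5 the first 7-day value turned from -0.10 to 0.12. Group means lay between 143 ± 26.0 CPM with aN1aN2 at 5 days and 215 ± 28.5 CPM with RW at 15 hours in the first 8 groups. They were 314 ± 75.8 CPM with aJ1aJ2 and 279 ± 36.6 CPM with aN1aN2aN3 in the second 7-day set. Its exons overlap Trmt112 on the opposite strand, so reads of the 2 genes cannot be told apart if strand was not used in counting.

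Sod1, the cytosolic copper and zinc superoxide dismutase (ENSMUSG00000022982, chromosome 16), differed little between groups. Its 8 log2 differences ran from -0.23 to 0.13, with a smallest adjusted p of 0.579. Unlike Gpx1 it stood low in the second 7-day set, at 90.7 ± 24.1 CPM with aJ1aJ2 and 101 ± 12.7 CPM with aN1aN2aN3, against 97.3 to 141 CPM on average in the first 8 groups. Sod1 shares 23.1% of its 50-base windows with the processed copy Gm8566. The ratio of Sod1 to Gm8566 counts was 3.24 to 4.13 on average in the first 8 groups and 6.80 and 7.50 in the second 7-day set.

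Sod2, the mitochondrial manganese enzyme (ENSMUSG00000006818, chromosome 17), was lower with aN1aN2aN3 than with aJ1aJ2. The aJ1aJ2 libraries of the second set held 233, 302, 275, 352 and 186 CPM and the aN1aN2aN3 libraries 213, 163, 195, 153 and 153 CPM. The groups overlapped at their edges, with aN1aN2aN3 lower by 0.65 on the log2 scale (SE 0.20, adjusted p = 0.0378). This difference was called in 2 of the 10 fits without 1 library, the same 2 as for Gpx4. Against RW, Sod2 was the most variable member. At 5 days RW held 91.3, 85.9, 516, 128 and 79.7 CPM, and its log2 differences of -0.57 and -0.41 turned to 0.35 and 0.50 without library 3 (adjusted p = 0.628 and 0.460). In the first 7-day set the difference was 0.50 (adjusted p = 0.472), and 0.17 (adjusted p = 0.670) without aJ1aJ2 library 2, which held 330 CPM.

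Cat encodes catalase of the peroxisome (ENSMUSG00000027187, chromosome 2). Its mean was above that of RW in all 5 comparisons, by 0.11 to 0.45 on the log2 scale, with adjusted p-values from 0.513 to 1.00, so none differed beyond the spread. At 5 days the means were 166 ± 45.0 CPM for RW, 228 ± 82.7 CPM for aJ1aJ2 and 204 ± 30.3 CPM for aN1aN2. In the first 7-day set they were 189 ± 29.9 CPM for RW and 244 ± 117 CPM for aJ1aJ2, and without aJ1aJ2 library 2 (453 CPM) the log2 difference of 0.37 was 0.02. The second 7-day set had the lowest Cat means of all groups, 147 ± 37.0 CPM with aJ1aJ2 and 116 ± 29.8 CPM with aN1aN2aN3 (log2 difference -0.37, adjusted p = 0.257).

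Across the 10 genes in the second set, 8 log2 differences were below 0, with a median of -0.41, against 54.2% of all genes below 0 and a median of -0.07. Tissue markers differed between the same libraries. The Tg share was 1.15% to 2.82% with aJ1aJ2 and 3.73% to 6.50% with aN1aN2aN3. Tg was higher with aN1aN2aN3 by 1.31 on the log2 scale (SE 0.31, adjusted p = 0.0137). Summed shares of the 3 C cell markers were 0.652% to 2.51% and 2.91% to 4.58%. Those of the 7 adipocyte markers were 0.278% to 0.536% and 0.0282% to 0.142%. Those of the 3 endothelial markers were 0.0113% to 0.0159% and 0.0175% to 0.0265%. These 4 shares did not overlap between the groups. The muscle share was 0.0339% to 9.41% and 0.520% to 2.64%, with overlap. With the Tg share as a covariate 0 of the 10 genes were called, and the values were -1.64 for Prdx1, -0.08 for Prdx3, 0.03 for Gpx4 and 0.14 for Sod2. The Tg share separates the 2 groups, so this fit cannot tell treatment and Tg share apart. With the muscle share as a covariate all 4 calls were kept, at -1.21 for Prdx1, -0.79 for Prdx3, -0.67 for Gpx4 and -0.66 for Sod2. No fit was made with the shares of C cells, adipocytes or endothelium.

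Of the wider list of 47 antioxidant and selenoprotein genes, 46 were tested in the second 7-day set. There 8 were higher and 5 lower with aN1aN2aN3 than with aJ1aJ2 (28.3%, against 19.6% of all genes). The highest was Txnip, the thioredoxin inhibitor, at 669 ± 160 CPM with aJ1aJ2 and 4466 ± 1320 CPM with aN1aN2aN3 (log2 2.70, SE 0.29, adjusted p = 0.000493). Next came the sestrins Sesn2 (2.29, adjusted p = 0.00114) and Sesn1 (1.46, adjusted p = 0.00169), which are stress-inducible. The lowest was thioredoxin itself, Txn1, at 326 ± 99.1 CPM with aJ1aJ2 and 199 ± 35.4 CPM with aN1aN2aN3 (log2 -0.75, SE 0.22, adjusted p = 0.0362). Gpx8 (-0.70, adjusted p = 0.0324) and Glrx3 (-0.63, adjusted p = 0.0253) followed. Prdx6, the peroxiredoxin with a single catalytic cysteine, was picked after its value was seen. It stood at 359 ± 90.3 CPM with aJ1aJ2 and 1008 ± 180 CPM with aN1aN2aN3 (log2 1.46, SE 0.22, adjusted p = 0.00217), opposite in direction to Prdx1 and Prdx3.

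**Figure D4:**
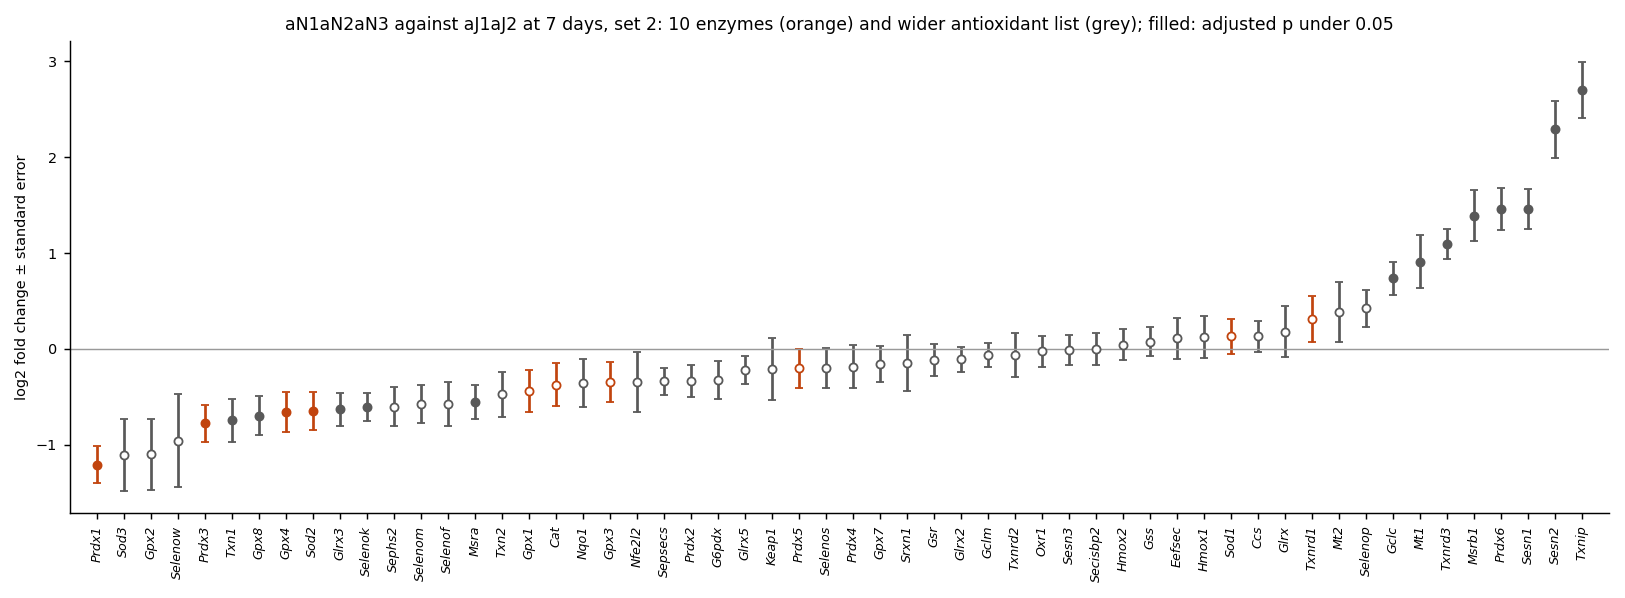
Log2 fold change with its standard error (vertical axis) of aN1aN2aN3 against aJ1aJ2 in the second 7-day set for the 10 enzymes (orange) and the wider antioxidant list (grey), ordered by value; filled points have an edgeR adjusted p under 0.05. Prdx1 (-1.21) is the lowest of all and Txnip (2.70) the highest.

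Against RW the wider list gave 1 call in 5 comparisons, 1 of 47 genes (2.13%) with aJ1aJ2 at 5 days, against 0.179% of all genes there. Selenok, a selenoprotein of the endoplasmic reticulum, fell with aJ1aJ2 at 5 days from 51.5 ± 4.65 to 32.8 ± 2.41 CPM (log2 -0.66, SE 0.11, adjusted p = 0.0309). With aN1aN2 its level was 32.8 ± 3.27 CPM (log2 -0.66, adjusted p = 0.109). At 5 days 36 of the 47 genes were below 0 in each arm, with medians of -0.21 (aJ1aJ2) and -0.23 (aN1aN2), against 55.8% and 58.5% of all genes and medians of -0.06 and -0.07. Medians of the 10 enzymes were -0.27 and -0.35 in these comparisons, which share their RW libraries. Without RW library 3 they were 0.08 (4 of 10 below 0) and -0.10 (6 of 10 below 0), so that library sets much of both. The wider list was not examined without that library, so how far its medians rest on it was not tested.

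The genes listed for hydrogen peroxide production (Duox1, Duox2, Duoxa1, Duoxa2 and Nox4) gave 0 calls of 5 in each of the 8 comparisons of groups. Of all genes, 0% to 19.6% were called in these comparisons, the most in the second 7-day set. There all 5 log2 differences were below 0 (54.2% of all genes), with a median of -0.79 against -0.07 for all genes. An unadjusted p under 0.05 was reached by 2 of the 5, both lower (35.6% of all genes, either direction). Duox2, the main thyroid oxidase, was at 33.3 to 57.5 CPM on average in the first 8 groups and at 5.12 ± 1.54 CPM (aJ1aJ2) and 4.59 ± 2.29 CPM (aN1aN2aN3) in the second 7-day set.

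Within groups 2 patterns stood out among the 10 genes. Each library's log2 CPM was taken as its deviation from the mean of its group, over all 50 libraries, which describes these libraries and shares their depth and tissue makeup. Prdx3, Sod2 and Gpx3 varied together (Pearson r = 0.95 for Prdx3 with Sod2, 0.89 for Gpx3 with Sod2, 0.87 for Gpx3 with Prdx3) and against Tg (r = -0.90, -0.87 and -0.78). They also varied with the muscle share (r = 0.69, 0.75 and 0.76). Prdx5, Sod1 and Gpx1 formed the other pattern (r = 0.86 for Prdx5 with Sod1, 0.76 for Gpx1 with Prdx5), with r of 0.12, 0.15 and -0.09 to Tg. To the muscle share their r was -0.47, -0.46 and -0.25. Gpx4 (r = -0.63 to Tg) and Cat (-0.53) went with the first, while Prdx1 (-0.29) and Txnrd1 (-0.18) tracked Tg little. The split was not clean. Gpx4 had r = 0.76 with Prdx3 but also 0.61 with Gpx1. Prdx1 had 0.61 with Gpx1, 0.57 with Prdx5 and 0.54 with Sod1, against 0.34 with Prdx3, 0.22 with Sod2 and 0.11 with Gpx3.

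**Figure D5:**
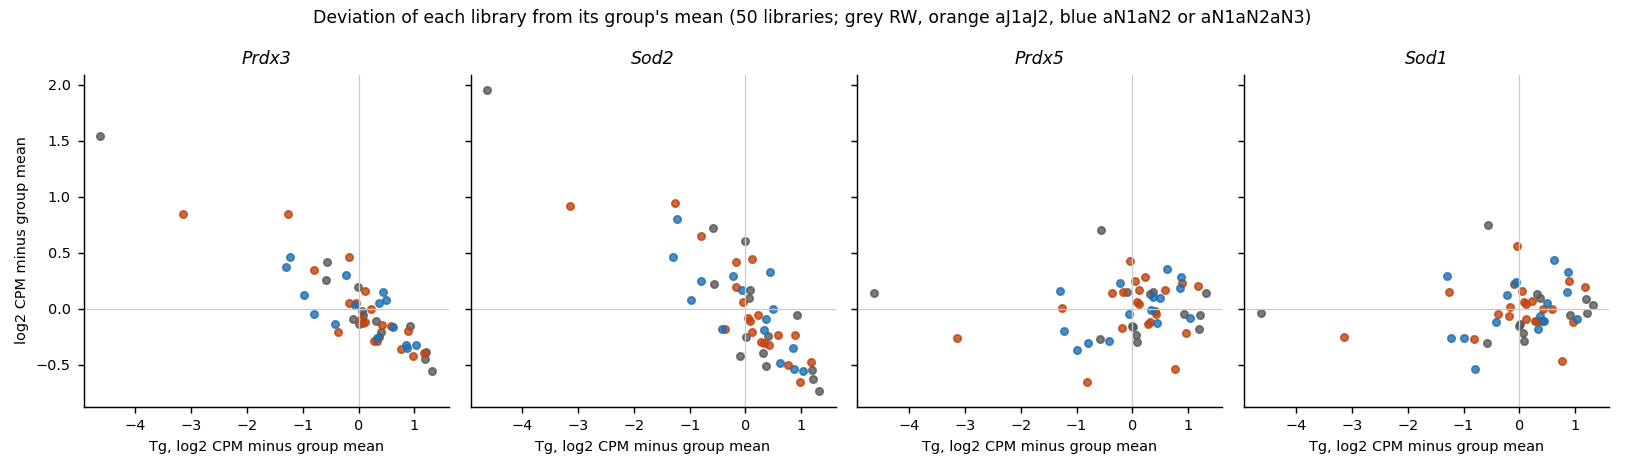
Log2 CPM minus the group mean for Prdx3, Sod2, Prdx5 and Sod1 (vertical axis) against the same quantity for Tg (horizontal axis) in 50 libraries; grey points are RW, orange aJ1aJ2 and blue aN1aN2 or aN1aN2aN3. Prdx3 (r = -0.90) and Sod2 (r = -0.87) fall from left to right, whereas Prdx5 (r = 0.12) and Sod1 (r = 0.15) do not.

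The genes whose deviations were most like those of each enzyme, among 21546, differ between the patterns. Sod2 was closest to the respiratory chain genes Sdhb and Uqcrc2 (r = 0.98 for both), Prdx3 to Mmadhc and Mtch2 (0.97 for both), and Gpx3 to Immp2l (0.94) and Hadhb (0.93), a fatty acid oxidation gene. Cat was closest to Acsl1 (0.89) and Cpt2 (0.86), which handle fatty acids. Gpx1 was closest to Taldo1 (0.86) and Chmp2a (0.82), Prdx5 to Vps25 (0.92) and Mettl26 (0.91), and Txnrd1 to Slc25a25 (0.78) and Ddb1 (0.77). For Gpx4, Prdx1 and Sod1 the closest was a processed copy of the gene itself, Gpx4-ps2 (0.95), Gm21399 (0.90) and Gm8566 (0.90), which can share its reads.

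Receptor and ligand blockade were also compared with each other. At 15 hours 0 of the 10 genes were called (0.130% of all genes), and 2 had an unadjusted p under 0.05 (12.5% of all genes). These were Txnrd1, with a log2 difference of -0.32 for aN1aN2 against aJ1aJ2 (SE 0.10, adjusted p = 0.215) and no overlap (0.778% of all genes in this direction), and Gpx4 with -0.48 (SE 0.15, adjusted p = 0.212). DESeq2 called Txnrd1 (adjusted p = 0.0416). The 2 groups at 15 hours lie in different FPKM blocks, so antibody and block cannot be told apart. The ratio of Gpx4 to Gpx4-ps2 counts was 0.350 in aJ1aJ2 and 0.268 in aN1aN2 at this time. At 5 days 0 of the 10 were called (0% of all genes) and 0 had an unadjusted p under 0.05 (4.22%). The log2 differences there lay between -0.21 and 0.16, and adjusted p-values were all 1.00.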

How the data were processed

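Mouse thyroid RNA was sequenced in 50 libraries of 50-base single reads. The authors deposited whole-number counts per gene and FPKM values, per the file headers. GSNAP and limma are named in the submitters' processing notes, and no source used here states the build, annotation, counting program or use of strand. The table held 52636 genes, of which 38478 had a count, and 52403 IDs were paired with a symbol. Library totals ranged from 15.3 M to 52.8 M counts.

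From the deposited counts, edgeR 4.0.16 (R 4.3.3) was run with TMM scaling, its expression filter (minimum count 10, total 15) and robust quasi-likelihood tests. The fits were separate for 15 hours, 5 days and each 7-day set, with Benjamini-Hochberg adjustment over all genes tested. Interactions were fitted over the libraries of both times. CPM values are counts scaled to library size, with TMM factors over all 50 libraries. The test steps were tested on simulated data. Alternatives were RLE or no scaling factors, no filter, DESeq2 1.42.0, limma 3.58.1 with quality weights or on log2(FPKM + 0.1), a muscle covariate, other sets of libraries, a replicate block, and leaving out each library. A Tg covariate and the addition of pseudogene counts were chosen after seeing the data. In all 100 pairs of libraries within groups, counts differed beyond sampling noise.

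The 10 genes and all lists were chosen with earlier results of these data known. All 10 were named in every comparison. From the wider list up to 3 called genes per direction with the largest fold change were named, and for each of the 10 the 2 genes with the highest correlation. The deposited FPKM follow gene span rather than transcript length, so levels between genes are CPM per kilobase of the transcript with the longest coding sequence. Identity and shared 50-base windows come from GENCODE M21, and promoters from RefSeq GRCm38.p6. The build of the deposited values is unknown, so gene coordinates are not printed beyond the promoter stretches.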

Additional observations from a re-analysis of the deposited data

Results flagged for a closer look

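In 19 of 100 groups of 5 libraries (10 genes in 10 groups) 1 library lay far above the other 4, by Dixon's ratio at its 95% critical value of 0.71. Chance gives about 5 for independent, normally distributed values. Here CPM was not on a log scale and the 10 genes share libraries, so 5 is not an exact reference. All 19 were the highest of their group, and 6 libraries held them. RW library 5 of the first 7-day set was highest for Gpx1 (314 CPM), Gpx4 (40.9 CPM), Prdx1 (241 CPM), Prdx3 (159.5 CPM), Prdx5 (331 CPM) and Sod1 (227 CPM). Its Tg share was 22.9% and its muscle share 0.135%. Library 3 of RW at 5 days was highest for Gpx3 (614 CPM), Gpx4 (42.9 CPM), Prdx3 (449.9 CPM) and Sod2 (516 CPM), with Tg at 0.450% and muscle at 11.0%. Library 2 of aJ1aJ2 in the first 7-day set was highest for Gpx3 (783 CPM), Prdx3 (261 CPM), Sod2 (330.4 CPM) and Cat (453 CPM), with Tg at 8.87% and muscle at 7.24%. Library 3 of aJ1aJ2 at 15 hours was highest for Prdx3 (178 CPM), Sod2 (171 CPM) and Cat (249 CPM), with Tg at 14.5% and muscle at 5.12%. Library 4 of aJ1aJ2 in the second 7-day set was highest for Gpx3 (1161 CPM), with muscle at 9.41%, and library 5 of aN1aN2 at 15 hours for Prdx1 (246 CPM), with leukocyte markers at 1.07%.

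The aJ1aJ2 effect on Txnrd1 differed between 5 days and 15 hours by -0.82 on the log2 scale, with an edgeR adjusted p of 0.0389 for the difference itself.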

How the results depend on the processing

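The counts below are of the 10 genes past an adjusted p of 0.05, all lower in the first-named group unless said. Shares of all genes called are given for the main test only. For aN1aN2 against RW at 15 hours the 0 of the main test became 1 with DESeq2, 1 with quality weights and 2 with FPKM, and ranged from 0 to 1 with 1 library left out. For aN1aN2 against aJ1aJ2 at 15 hours 0 became 1 with DESeq2 and 2 with FPKM. Both of these FPKM counts at 15 hours compare groups from different FPKM blocks. For aJ1aJ2 against RW at 5 days 0 became 2 with DESeq2, 3 with the Tg covariate, 1 with all 50 libraries in 1 fit, 3 with quality weights and 2 with the muscle covariate, and ranged from 0 to 1 with 1 library left out. For aN1aN2 against RW at 5 days 0 became 2 with DESeq2, 1 with the Tg covariate, 1 with all 50 libraries, 2 with quality weights and 2 with the muscle covariate. In the second 7-day set the 4 became 0 with the Tg covariate, 7 with quality weights (1 of them higher), 2 without the count filter and 2 with total counts, and ranged from 1 to 4 with 1 library left out. With the Tg covariate Gpx4 (0.033) and Sod2 (0.14) turned sign there, in a fit that cannot tell treatment and Tg share apart. The 1 call for the change in aJ1aJ2 effect from 15 hours to 5 days became 2 with quality weights, 0 without the count filter and 0 with total counts, and ranged from 0 to 1 with 1 library left out. The cause was not tested.

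Whether replicate numbers pair the samples was not settled. Same-numbered libraries correlated over 0.1 in 1 to 4 of 5 pairs per comparison. Their median r ran from -0.51 (aJ1aJ2 against RW, first 7-day set) to 0.79 (aJ1aJ2 against RW, 5 days). In 1 or 2 of 5 a library correlated best with its own number. The replicate block left 1 call (Prdx1) in the second 7-day set and 0 for the change in aJ1aJ2 effect, and made no other gain or loss. RLE factors and added pseudogene counts changed none of 110 calls. Of 1950 values with 1 library left out, 1913 kept their call, 35 lost it and 2 gained it. Total-count scaling moved the median of all genes at 5 days from -0.06 to 0.16 for aJ1aJ2 and from -0.07 to 0.11 for aN1aN2. FPKM moved it at 15 hours from 0.01 to -0.18 for aN1aN2 against RW. Every library held at least 333 counts of each gene, so the spread between libraries, not counting error, limits these comparisons.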
